A study of Saccharum hybrid cultivar with 12 samples.

Results

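In sugarcane stalk tissue, 146 of the 163054 assembled unigenes were chosen for opposite differences after ethephon in 2 genotypes. They stood at least 2-fold higher in the low-sugar genotype and at least 2-fold lower in the moderate-sugar genotype. Their summed level ranged 21.5-fold over the 12 libraries, from 732 counts per 1000000 counts of the library (CPM) in a moderate-sugar ethephon library to 15695 CPM in a low-sugar ethephon library. Both of these libraries were used to choose the unigenes, so the range is a description only. In the high-sugar genotype, which played no part in choosing them, their median ethephon effect was 0.11 on the log2 scale, and 145 of the 146 differed in the same direction between its 2 water libraries.

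The 3 genotypes were ROC22 (HS), a commercial clone with 15.0% sucrose, and the non-commercial clones YT71-210 (MS) and GT86-887 (LS), with 12.6% and 6.0% sucrose. Plants 8 months old received a foliar spray of water (CK) or of a 400 mg/L ethylene solution made from ethephon (T), and stalk was sampled on day 7 at 20 cm above the node of the 2nd youngest fully expanded leaf. There were 6 groups of 2 biological replicates, written as HS_CK1 and HS_CK2, and each genotype was 1 clone, so that sugar class and clone cannot be told apart. The submitters describe replicated field plots and do not say which plot gave which library, so p-values measure the spread between these samples, which may be in part technical.

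Ethephon breaks down inside plant tissue and releases ethylene, a gaseous hormone. In Arabidopsis, ethylene is bound by receptors in the endoplasmic reticulum membrane, which relieves the block that the kinase CTR1 places on EIN2, and EIN3 and the ethylene response factors then change the transcription of many genes. In sugarcane, ethephon is sprayed on the crop as a ripener, and it can slow the elongation of young internodes.

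The members were chosen by their levels in the 8 LS and MS libraries. The lower of the 2 LS_T libraries had to be at least 1 CPM and at least 2 times the higher LS_CK library plus 0.1 CPM, and the lower MS_CK library had to meet the same limits against the higher MS_T library. The quotient in each genotype is called its ratio below, and members were ranked by the product of both ratios. Fewer unigenes met the limits than the rank limit of 300, so all were kept. None of the 80 unigenes with a published role met them. All 146 passed the filter on low counts that left 54433 unigenes to test. The values that chose them are given as a description, and nothing is read from the size of the LS and MS differences.

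Totals of the 12 libraries lay between 19765594 and 28747056 expected counts, and the members took 0.0732% to 1.57% of them. In tissue samples such as these, fewer cells of a type and less RNA per cell cannot be told apart. The deposited files list unigenes by identifier only, so the members have no gene names or functions here, and markers of the stalk tissue were not analysed here.

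Ethephon libraries stood higher in both genotypes for 158 unigenes and lower in both for 27, and 2 unigenes were lower in LS and higher in MS. The LS limits alone were met by 1851 unigenes, of which the members were 7.89% and the unigenes also higher in MS were 8.54%. The MS limits alone were met by 326 unigenes. Of these 44.8% were members, 8.28% were lower in LS as well and 46.9% met neither limit in LS. Seen from MS, therefore, unigenes with the opposite response in LS outnumbered those with the same response. This contrast narrowed to 169 members against 114 lowered in both without MS_CK2, and to 184 against 86 without MS_T1. Over all tested unigenes, edgeR called 1.91% higher and 0.321% lower in LS_T (adjusted p under 0.005 and a fold change over 2). Seen from LS, both shares were close to each other. The closeness seen from LS turned most on MS_T1, without which the unigenes raised in both numbered 336 against 184 members. The gap was smaller without MS_CK1, with 254 against 214, and without MS_CK2, with 213 against 169.

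**Figure D1:**
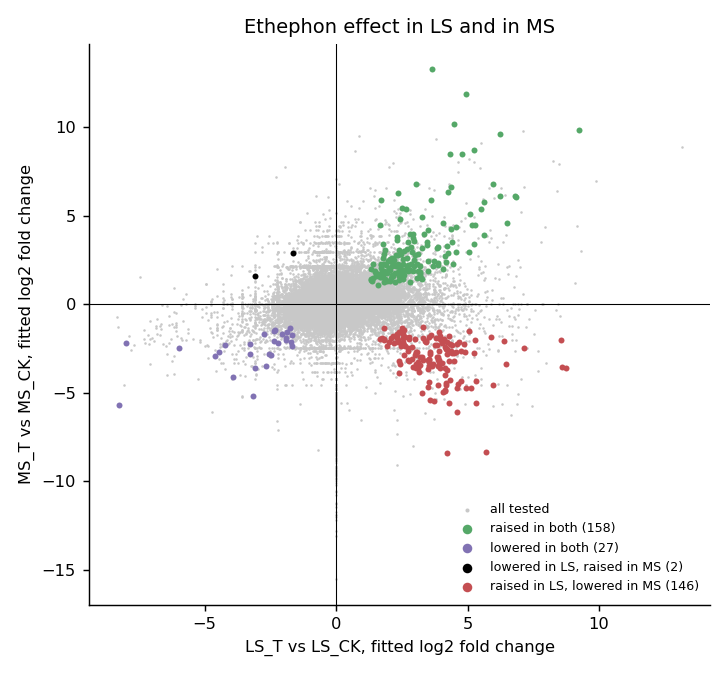
Fitted log2 fold change after ethephon in LS (x axis) and in MS (y axis), 1 point per unigene, with all 54433 tested unigenes in grey and the 4 patterns in colour. The 146 members lie at the lower right and the 158 unigenes raised in both genotypes at the upper right, each placed there by the limits.

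The summed level of the members was 15695 and 9002 CPM in the LS_T libraries and 779 and 1963 CPM in the LS_CK libraries. In MS it was 3869 and 4913 CPM with water and 916 and 732 CPM with ethephon. The mean of LS_T was 9.01 times that of LS_CK, and the mean of MS_CK was 5.33 times that of MS_T. In HS the sum was 4297 and 10644 CPM with water and 9715 and 6429 CPM with ethephon, and the mean of HS_T was 1.08 times that of HS_CK. All 4 HS libraries thus stood well above the MS_T and LS_CK libraries, and the HS_T libraries fell between the HS_CK libraries. LS_T1 was the highest library for 101 members and LS_CK1 the lowest for 64.

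**Figure D2:**
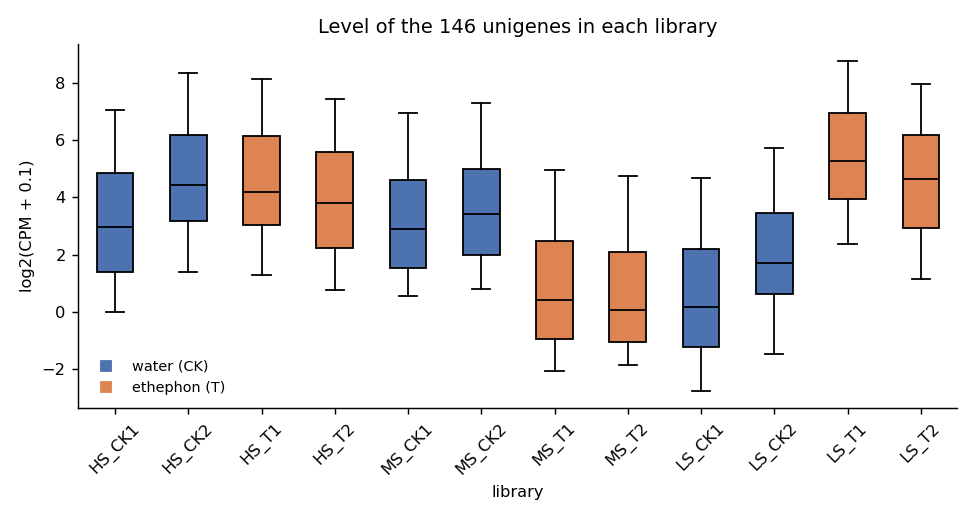
Level of the 146 unigenes in each library as log2(CPM + 0.1); boxes span the quartiles with the median as a line, whiskers reach the 5th and 95th percentiles, blue is water and orange is ethephon. The medians were 38.3 and 25.1 CPM in LS_T, 1.25 and 0.939 CPM in MS_T, and 7.74 CPM in HS_CK1 against 21.3 CPM in HS_CK2.

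The ratios ran from 2.02 to 145 in LS, with a median of 4.99, and from 2.02 to 118 in MS, with a median of 3.79. Both ratios were above 5 in 24 members, and the LS ratio was the larger one in 83. Mean levels over all libraries ran from 1.06 to 332 CPM with a median of 13.1 CPM, and 20 members exceeded 100 CPM. The group was therefore spread over a wide range of abundance.

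The largest product belonged to c86284_g3. Its level was 174 and 182 CPM in LS_T, 0 and 7.18 CPM in LS_CK, 24.2 and 38.5 CPM in MS_CK and 0.0924 and 0.104 CPM in MS_T. In HS it was 8.87 and 49.2 CPM with water and 50.7 and 21.5 CPM with ethephon. The MS_T libraries thus held almost no reads of this unigene while the HS groups overlapped.

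The next members, c83637_g1 and c79846_g1, had LS ratios of 142 and 145 and MS ratios of 5.07 and 3.23. For c83637_g1 the LS_T libraries gave 78.5 and 51.5 CPM, LS_CK 0.0451 and 0.263, MS_CK 1.56 and 2.11, MS_T 0.0924 and 0.209, HS_CK 2.52 and 23.7, and HS_T 23.1 and 4.36. For c79846_g1 they gave 33.6 and 35.9 CPM in LS_T, 0.0451 and 0.131 in LS_CK, 1.52 and 2.53 in MS_CK, then 0.37 and 0.0348 in MS_T, 0.547 and 6.8 in HS_CK, and 7.01 and 1.15 in HS_T. In each of these unigenes, the HS_CK2 and HS_T1 libraries were close to each other and several times above HS_CK1 and HS_T2.

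Other members had the larger ratio in MS. c80839_g1 gave 11.1 and 16.9 CPM in MS_CK, 0.231 and 0.209 in MS_T, 61.8 and 27.6 in LS_T and 0.18 and 3.68 in LS_CK. c100422_g1, which was more abundant, gave 125 and 181 CPM in MS_CK, 3.56 and 3.34 in MS_T, 445 and 164 in LS_T and 3.47 and 28.9 in LS_CK. Their MS ratios were 33.7 and 34.1, and in both the higher LS_CK library exceeded the lower one more than MS_CK2 exceeded MS_CK1.

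The remaining unigenes among the 12 with the largest products were c79573_g1, c90861_g3, c96516_g1, c100796_g1, c85482_g1, c83270_g2 and c77857_g1. Of these, c96516_g1 was the most abundant in LS_T, with 346 and 258 CPM against 4.19 and 3.55 CPM in LS_CK. It gave 6.55 and 12 CPM in MS_CK and 2.36 and 2.4 CPM in MS_T, so that its LS ratio of 60.1 stood beside an MS ratio of 2.62. In contrast, c90861_g3 had ratios of 15.6 in LS and 11.1 in MS, with 58.6 and 49.9 CPM in LS_T, 0.586 and 3.11 in LS_CK, 7.28 and 16 in MS_CK, and 0.555 and 0.383 in MS_T.

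**Figure D3:**
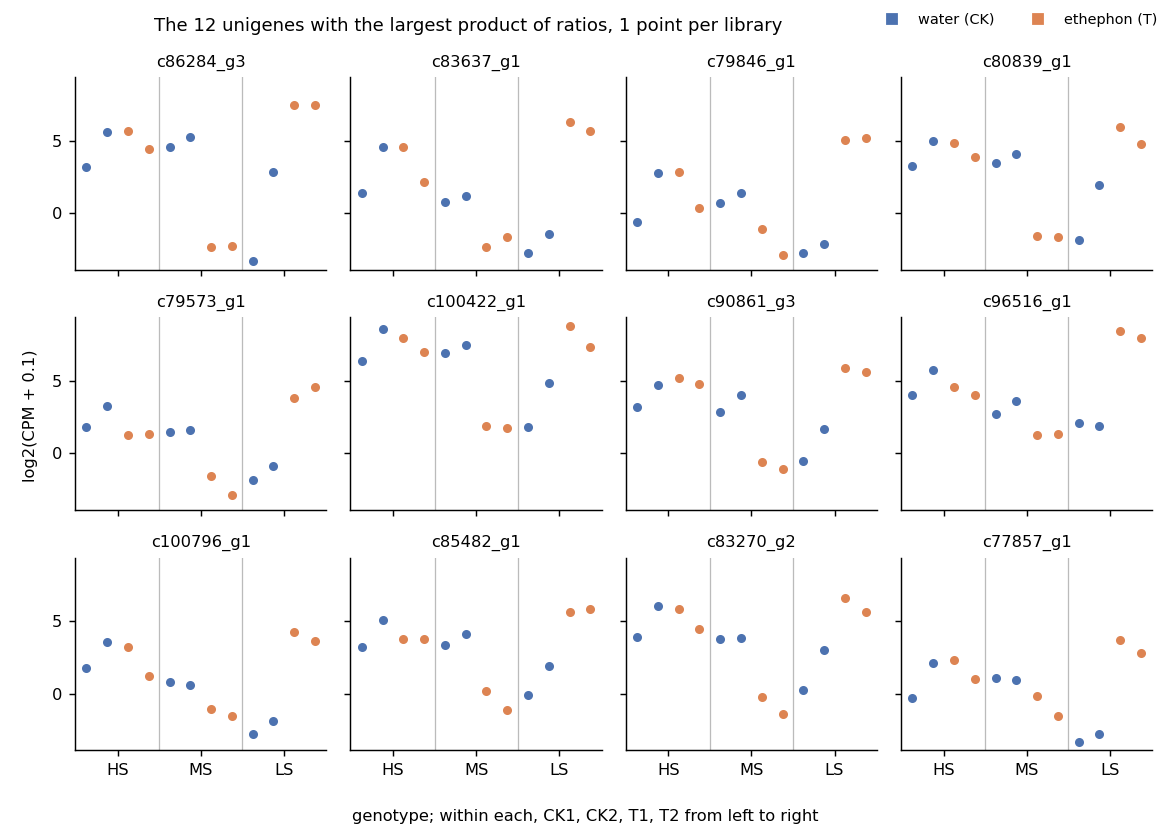
Level of the 12 unigenes with the largest product of ratios as log2(CPM + 0.1), 1 point per library in the order CK1, CK2, T1, T2 within each genotype, with blue for water and orange for ethephon. The LS_T points are high and the MS_T points low by the rule, and in HS the first water library lies under the second in all 12 panels.

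The most abundant member was c93949_g1. Its level was 660 and 450 CPM in LS_T, 30.7 and 189 in LS_CK, 264 and 321 in MS_CK, then 22.5 and 19.4 in MS_T, 320 and 616 in HS_CK, and 596 and 497 in HS_T. It was followed by c80263_g1, c85002_g1, c100164_g2, c92515_g1 and c90537_g1, whose LS ratios were 2.89, 3.16, 3.47, 4.0 and 9.05 and whose MS ratios were 2.9, 3.06, 2.26, 2.42 and 2.32. In c90537_g1, for example, LS_T gave 550 and 253 CPM, LS_CK 21.6 and 27.8, MS_CK 95.1 and 136, and MS_T 41 and 21.5. Of these 6 members, 5 had an LS ratio under the median of all members and 5 an MS ratio under it, the exceptions being c90537_g1 in LS and c93949_g1 in MS, with 11.7.

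At the lower limit, the member nearest to the fold limit was c94532_g1, with ratios of 2.02 in LS and 6.29 in MS. It gave 6.23 and 3.64 CPM in LS_T against 0.225 and 1.71 in LS_CK. The nearest unigene outside, c74084_g1, had an LS ratio of 6.46 and an MS ratio just under 2, with 1.96 and 2.86 CPM in MS_CK against 0.878 and 0.244 in MS_T. Only c60300_g1 among the members had no counts in either MS_T library, where a count of 0 allows up to 0.139 and 0.104 CPM (3 counts per library, counting error only), and its MS_CK libraries gave 1.61 and 2.06 CPM. The median member had 102 counts summed over both LS_CK libraries and 56 over both MS_T libraries, so the ratios of many members rest on few counts in their low group.

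As the rule fixes the direction in LS and MS, the tests there are given only for the record. Calls needed an adjusted p under 0.005 and a fold change over 2 by edgeR's quasi-likelihood test. With these limits, 60 members were called higher in LS_T (1.91% of all tested unigenes) and 0 were called lower in MS_T (0.0% of all tested), where 75 passed by DESeq2 (0.564% of all tested), 0 by limma (0.00367% of all tested), and all 146 had an unadjusted edgeR p under 0.05 (5.83% of all tested). The difference between the LS and the MS effect was called for 59 (0.344% of all tested). The median fitted log2 fold changes were 3.67 in LS, -2.71 in MS and 6.59 for the difference. Most of these counts turn on single libraries. The LS count was 20 without LS_T1, 34 without LS_T2, 1 without LS_CK1 and 5 without LS_CK2. The count for the difference was 3 without LS_T1, 32 without LS_T2, 49 without LS_CK2, and 0 without LS_CK1 or without any 1 of the MS_T1, MS_T2, MS_CK1 and MS_CK2 libraries.

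The HS libraries address whether ethephon moved the same unigenes in a genotype the rule did not use. In HS_T against HS_CK, 0 of the 146 members were called by edgeR in either direction (0.011% of all tested unigenes were), 0 by limma (0.0129% of all tested were called higher and 0.0% lower) and 1, c78844_g1, by DESeq2 (0.118% of all tested were called higher). At an unadjusted edgeR p under 0.05, 5 members were higher and 3 lower, which is 3.42% and 2.05% of them against 2.24% and 1.78% of all tested unigenes. These shares lay near the background in each direction. With no filter on low counts, edgeR called 11 members, 7 higher and 4 lower, against 0.551% of the 156702 unigenes then tested, so the count of 0 turns on the filter. The median HS log2 fold change was 0.11, with quartiles of -0.16 and 0.45, and 88 members, or 60.3%, were above 0 and 58 below. Above 0 were 47.4% of all tested unigenes, 75.5% of the non-members that met the LS limits and 43.9% of those that met the MS limits.

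For the other patterns, the HS values were as follows. The 158 unigenes raised in both LS and MS had a median HS log2 fold change of 1.29, and 96.8% of them were above 0. The 27 unigenes lowered in both had a median of -0.84, and all tested unigenes had a median of 0.00. Most unigenes with the same direction in LS and MS thus had that direction in HS as well, and the members were divided between both directions there.

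**Figure D4:**
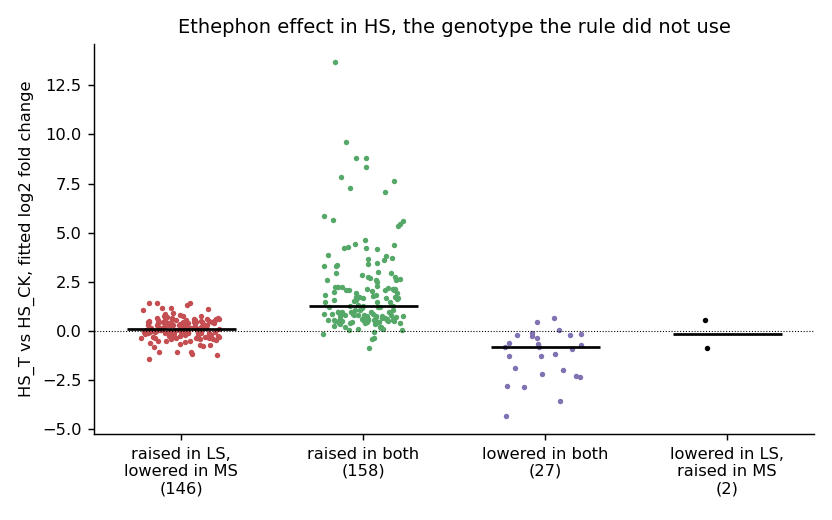
Fitted log2 fold change of HS_T against HS_CK for the unigenes of each pattern, 1 point per unigene, with a bar at the median. The members centre on 0.11, the unigenes raised in both LS and MS on 1.29 and those lowered in both on -0.84.

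The HS libraries separated by treatment in a minority of the members and in a minority of all tested unigenes. Both HS_T libraries lay above both HS_CK libraries in 15 members, or 10.3% (12.9% of all tested unigenes). They lay under them in 4, or 2.74% (14.9% of all tested). The share above was near that of all tested unigenes, and the share under was smaller. With 2 libraries against 2, an exact two-sided permutation test cannot go below p = 0.333, so a single unigene was tested only in the model over all unigenes. The 4 unigenes under HS_CK, which are named because they are few, were c79573_g1, c91761_g1, c79962_g1 and c100302_g1.

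The smallest p for a rise belonged to c78844_g1. It gave 2.94 and 4.81 CPM in HS_CK and 11.2 and 9.16 CPM in HS_T, with no overlap, and its log2 fold change was 1.40 ± 0.36 (SE, edgeR adjusted p = 0.561). For c93131_g1 the values were 6.03 and 6.75 CPM in HS_CK and 14.7 and 12 CPM in HS_T, with a log2 fold change of 1.07 ± 0.29 (SE, edgeR adjusted p = 0.603). c77198_g1 and c83039_g1 came next, with log2 fold changes of 1.40 and 1.32 and adjusted p of 1 and 0.993. In these 4 unigenes the order of the HS groups was that of LS, and none passed the edgeR threshold.

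The smallest p for a fall belonged to c100302_g1. It gave 32.2 and 66.7 CPM in HS_CK and 21.4 and 25.6 CPM in HS_T, and its log2 fold change was -1.07 ± 0.32 (SE, edgeR adjusted p = 0.767). c79573_g1 gave 3.36 and 9.77 CPM in HS_CK and 2.34 and 2.49 CPM in HS_T, with a log2 fold change of -1.44 ± 0.51. c98497_g1 and c95104_g1 had log2 fold changes of -1.05 and -1.08, and their HS groups overlapped. In c95104_g1 the HS_CK2 library gave 20.8 CPM and the other HS libraries between 5.21 and 6.83 CPM, so its difference came from a single library.

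Between the 2 water libraries of HS, nearly all members differed in the same direction. HS_CK2 was above HS_CK1 in 145 of 146 members (44.2% of all tested unigenes), and by at least 2-fold in 114, or 78.1% (3.09% of all tested). The median log2 ratio of CPM + 0.1 was 1.48 over the members, with a 10th percentile of 0.73 and a 90th percentile of 2.45, and -0.01 over all tested unigenes. The exception was c101588_g1, with 47.6 CPM in HS_CK1, 22.5 in HS_CK2, and 36.3 and 50.3 in HS_T. This direction was noticed in the data and was not set beforehand, and the HS libraries took no part in the rule.

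HS_CK2 was also above HS_CK1 in most unigenes of the following sets. The share was 85.2% of the unigenes lowered in both LS and MS (median log2 ratio 0.65). It was 77.8% of the non-members that met the MS limits (median 0.71) and 67.7% of those that met the LS limits (median 0.38). Of the unigenes raised in both, 58.2% had this direction (median 0.2). The direction was thus not particular to the members, whose median of 1.48 was larger. A difference of at least 2-fold was found in 10.1% of the unigenes raised in both and in 11.1% of those lowered in both. It was found in 17.7% of the non-members that met the LS limits and in 54 of the 180 that met the MS limits. Of the 772 unigenes at or above 1 CPM in LS_T and MS_CK with such a difference, the 114 members made up 14.8%. The members were therefore a minor part of the unigenes that differed between both HS water libraries, whereas most members did so.

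The ethephon libraries of HS differed as well. HS_T1 was above HS_T2 in 131 members (54.5% of all tested unigenes), with a median log2 ratio of 0.61 against 0.04 over all tested. Other unigenes that met the LS limits had this too, with HS_T1 higher in 86.1% of those raised in both LS and MS (median 0.48) and in 80.7% of all non-members among them (median 0.41). HS_CK1 was the lowest of the 4 HS libraries in 130 members (24.6% of all tested) and HS_CK2 the highest in 84 (23.6% of all tested). The single order HS_CK2, HS_T1, HS_T2, HS_CK1 held in 68 members (6.01% of all tested). The median log2 ratio between both HS water libraries (1.48) thus exceeded the median effect of ethephon in HS (0.11).

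The same was seen to a smaller or similar degree in LS and MS, whose libraries the rule used. LS_CK2 was above LS_CK1 in 131 members (47.0% of all tested unigenes), with a median log2 ratio of 1.34 against 0.00. It was also above in 76.1% of the non-members that met the MS limits (median 0.59) and in 53.8% of those that met the LS limits (median 0.05). LS_T1 was above LS_T2 in 130 members (55.4% of all tested), with a median of 0.85 against 0.08. MS_CK2 was above MS_CK1 in 126 (37.5% of all tested), with a median of 0.35, and MS_T1 above MS_T2 in 92 (33.6% of all tested), with a median of 0.20. In the sums over members, these differences amounted to 2.48-fold in HS_CK, 2.52-fold in LS_CK, 1.74-fold in LS_T, 1.51-fold in HS_T, 1.27-fold in MS_CK and 1.25-fold in MS_T. All 6 replicate pairs thus differed in a direction shared by most members, and the part of plots, plants or handling in it was not tested.

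**Figure D5:**
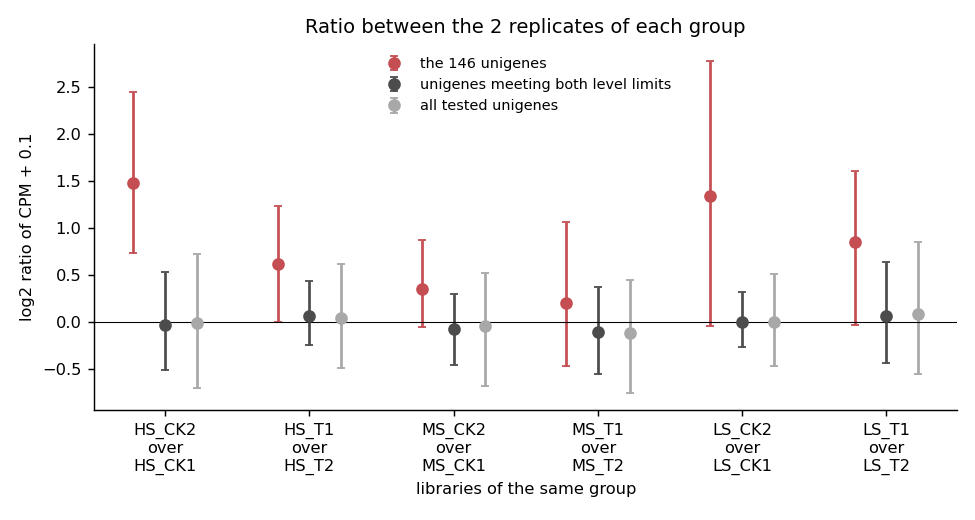
Log2 ratio of CPM + 0.1 between both replicates of each group, with the library of the higher member sum over the lower; points are medians over unigenes and bars run from the 10th to the 90th percentile. The members (red) have medians of 1.48 in HS_CK and 1.34 in LS_CK, and the unigenes at or above 1 CPM in LS_T and MS_CK (dark grey) and all tested unigenes (light grey) stay near 0.

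Leaving out 1 HS library moved the median HS effect across 0. It was 1.13 without HS_CK2, -0.40 without HS_CK1, -0.29 without HS_T1 and 0.41 without HS_T2. Across members, the log2 ratio of HS_CK2 to HS_CK1 had a Pearson correlation of 0.46 with the fitted LS effect and of -0.30 with the fitted MS effect (n = 146 unigenes, which are not independent). Over all 54433 tested unigenes these were 0.09 and -0.46. The Spearman correlations were 0.51 and -0.34 over the members and 0.04 and -0.14 over all tested unigenes. Under the rule, the fitted effects of the members ran only from 1.67 to 8.73 in LS and from -8.41 to -1.28 in MS. Correlations within such limited ranges cannot be compared with those over all tested unigenes, and nothing is read from their differences. The comparisons share no libraries, but all were made in 1 assembly.

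Each HS group was then placed between the low and the high libraries of a member. The low libraries were the LS_CK and MS_T libraries and the high ones the LS_T and MS_CK libraries. Both HS_T libraries were at or above the lowest high library in 114 members and at or under the highest low library in 2. Both HS_CK libraries were in the high range in 68 members, in the low range in 0 and split over ranges in 63. In 13 members the low and high libraries of LS and MS overlapped. Taken singly, HS_CK1 was in the high range in 73 members, HS_CK2 in 142, HS_T1 in 134 and HS_T2 in 126. The HS_T libraries thus mostly lay at or above the lowest LS_T or MS_CK library, while HS_CK did so in 68 members. HS_CK1 was the library that departed most often. Median levels over the members were 7.28 and 10.5 CPM in MS_CK, 18.3 and 13.8 CPM in HS_T, and 38.3 and 25.1 CPM in LS_T. The high range therefore does not place HS_T at the LS_T level. LS_T was above MS_CK without overlap in 120 members, and MS_T was under LS_CK without overlap in 45. No share over all tested unigenes is given beside the counts of this paragraph. The rule used the LS and MS libraries, so these counts are a description only.

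Trinity gives the unigenes of 1 assembly component a common first part of the identifier, and such unigenes can share reads. The members came from 135 components, of which 8 held more than 1 member and together 19. Component c84540 held 4. Its c84540_g1 gave 90.7 and 31.6 CPM in LS_T, 0.0451 and 3.11 in LS_CK, 2.93 and 10.7 in MS_CK, and 0.555 and 0.209 in MS_T. In HS the 4 unigenes gave 0.964 to 1.93 CPM in HS_CK1 and 11.6 to 13.9 CPM in HS_CK2, while c84540_g2 and c84540_g4 had HS log2 fold changes of -0.29 and -0.58 and c84540_g1 and c84540_g3 of 0.77 and 1.14. Component c93532 held 3, with HS log2 fold changes of 0.44, 0.12 and 0.06. Members of 1 component are not independent, and 73 members had no other unigene in their component.

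These components held 102 further unigenes, of which 57 were tested. The fitted effect was above 0 in LS and under 0 in MS in 25 of the 57, or 43.9% (16.1% of all tested unigenes), and 9, or 15.8%, had an unadjusted edgeR p under 0.05 in both (1.0% of all tested). Over all tested unigenes, 546 had a rise in LS and a fall in MS at that p and 190 the reverse. The unigenes assembled beside a member thus often had its signs, and reads shared between them were not measured here.

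The unigene length implied by the ratio of count to FPKM had a median of 704 bases over the members, with quartiles of 461 and 1018 bases. It was 1032 bases over the 27002 unigenes at or above 1 CPM in LS_T and MS_CK, and 736 bases over all tested unigenes. The members were not matched to either set on level, and their median lay closer to that of all tested unigenes.

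The unigenes with a published role served as a list of 80 for the pathways under study, of which 79 were tested. They had been picked on these samples, so their direction is no independent evidence. None of them had a rise in LS together with a fall in MS at an unadjusted edgeR p under 0.05 (1.0% of all tested unigenes), and 13 of the 79 had these signs (16.1% of all tested). In LS_T, 5 were called higher and 0 lower by edgeR, against 18 higher and 10 lower at an unadjusted p under 0.05 (12.1% and 12.4% of all tested). In MS_T, 0 were called, with 12 higher and 6 lower at an unadjusted p under 0.05 (6.48% and 5.83% of all tested). In HS_T, 1 was called higher, the methyltransferase c89405_g1.

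The 5 unigenes called in LS had fitted log2 fold changes above 0 in all 3 genotypes. They were the ATPases c79387_g1, c87456_g3 and c87964_g1, enzymes that hydrolyse ATP, c91176_g1 of the sucrose synthesis group, and c89405_g1, a methyltransferase, an enzyme class that transfers methyl groups. The ATPase c87964_g1 gave 87.1 and 66.5 CPM in LS_T against 9.92 and 9.15 in LS_CK, and 7.21 and 6.23 CPM in MS_T against 3.62 and 3.56 in MS_CK. c89405_g1 gave 211 and 133 CPM in HS_T against 11.3 and 9.63 in HS_CK (log2 fold change 4.04 ± 0.32, SE, edgeR adjusted p = 0.00121), 9.25 and 5.46 CPM in LS_T against 0.0902 and 0.131 in LS_CK, and 12.3 and 9.95 CPM in MS_T against 4.89 and 2.53 in MS_CK. In both the libraries labelled T stood above those labelled CK in HS, MS and LS alike, so the opposite direction of the members in MS did not extend to them.

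The ethylene responsive factor of the list, c81582_g1, a transcription factor of the hormone's own pathway, passed in no genotype. It gave 4.01 and 4.38 CPM in LS_CK and 3.18 and 2.53 in LS_T, with 8.56 and 8.53 CPM in MS_CK and 8.13 and 11.9 in MS_T. The heat shock factor c101031_g1, a transcription factor of heat-responsive genes that is named after its values were seen, gave 47.2 and 58 CPM in MS_CK and 20.4 and 28.7 in MS_T. In LS it gave 28.6 and 61.6 CPM with water and 57 and 39.6 CPM with ethephon, and its groups overlapped there. Its fitted log2 fold changes were -1.19 in MS and 0.18 in LS, and neither passed (edgeR adjusted p = 0.152 and 0.801).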

How the data were processed

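RNA of developing stalk was sequenced in 12 libraries, from 3 genotypes with 2 treatments and 2 biological replicates each. The authors trimmed the reads, assembled all of them with Trinity, kept 1 unigene per subcomponent and aligned reads back with RSEM, whose version is not given in the sources used here. They deposited an expected count per unigene and library, with no scaling between libraries, and 1.01% of the values used were not whole. They also deposited FPKM, per unigene length and mapped fragments. Technical replicates had been merged, and the labels and the methods differ in their number.

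CPM was the expected count per 1000000 of the library's sum. Rounded counts were fitted with edgeR 4.0.16 in R 4.3.3 (filterByExpr with a minimum count of 10, TMM factors of 0.919 to 1.09, glmQLFTest, 1 coefficient per group, 6 residual degrees of freedom, Benjamini-Hochberg over all 54433 tested unigenes). Alternatives used DESeq2 1.42.0, limma 3.58.1 on log2(FPKM + 1), other scalings, filters and thresholds, a block for the replicate number, and the removal of single libraries. The HS comparison was first run with edgeR, DESeq2 and limma on simulated data, and the LS, MS and difference tests were not. The simulated libraries had no shift shared by many unigenes, so the recovery does not describe the members. With 200 of 54433 unigenes changed by a log2 change of 3 in HS_T vs HS_CK, edgeR recovered 131, DESeq2 139 and limma 133, and they called 0, 10 and 2 unchanged unigenes. With no unigene changed, DESeq2 called 4 and the others 0.

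Named are the 12 members with the largest product of ratios, the 6 with the highest mean CPM, the 4 with the smallest p for a rise and the 4 for a fall in HS, the unigenes nearest to the fold limit, any member called in HS by edgeR, and listed unigenes that were called in LS or MS. The members and lists were chosen with earlier results of these data known. The replicate numbers were not treated as pairing the samples, since not every correlation exceeded 0.1: deviations of same-numbered CK and T libraries correlated at 0.235 in HS, -0.096 in MS and -0.018 in LS, and over all pairs of groups the correlation ran from -0.147 to 0.401 (HS_CK with MS_CK). Sequences, annotation, sucrose contents and qRT-PCR were not analysed here.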

Additional observations from a re-analysis of the deposited data

Results flagged for a closer look

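The LS and the MS effect differed by edgeR's test of the difference itself in 59 members. The rule chose the members for opposite directions in these libraries, so the difference carries no further support. Among the named members that passed, the LS effect minus the MS effect on the log2 scale was 10.66 for c80839_g1, 10.56 for c79573_g1, 9.70 for c90861_g3, 9.12 for c85482_g1, 8.42 for c96516_g1, 7.00 for c95104_g1, 6.57 for c78844_g1, 6.05 for c90537_g1, 4.95 for c93131_g1, 4.06 for c100164_g2 and 3.65 for c100302_g1. Outside the members, the ATPase c87964_g1 passed as well, with a difference of 2.27 and a higher level after ethephon in both genotypes. For c87964_g1 both effects had the same sign, whereas the members had opposite signs by the rule.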

How the results depend on the processing

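Across the alternatives, the HS effect of named members stayed the same in direction in 179 values, changed sign in 28 and passed the threshold in 1. Several counts for the members as a set moved with the filter, the tool or the library left out. The count of members called in HS was 1 by DESeq2 (0.118% of all tested were called higher), where c78844_g1 passed with a log2 fold change of 1.39. With no filter on low counts, the HS count was 11 (0.551% of the 156702 unigenes then tested). It was 0 under the other alternatives run, including each HS library left out. With no filter, the counts in LS, in MS and for their difference were 146 each. With an adjusted p under 0.05 and no fold limit, they were 143 in LS, 30 in MS and 141 for the difference. The shares over all tested unigenes in the same directions were 6.29%, 0.187% and 1.74%. DESeq2 gave 128, 75 and 145 (3.9%, 0.564% and 1.99% of all tested). With only the libraries compared, MS gave 67 and the difference 141, and limma on log2(FPKM + 1) gave 35 for the difference (0.22% of all tested). No share over all unigenes is given for the other LS, MS and difference counts of this section, and nothing is read from them. With each library left out in turn, the count ranged from 1 to 34 in LS and from 0 to 49 for the difference. The median HS effect then ranged from -0.40 to 1.13. The cause of these shifts was not tested.

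With a replicate block, the model called 0 members in HS, 68 in LS, 0 in MS and 76 for the difference, and the median HS effect was 0.17. Among the named members, c83270_g2 alone changed sign under the block, to 0.10.

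The limits found 77 members at 3-fold, with 66 unigenes raised in both, 5 lowered in both and 0 lowered in LS and raised in MS. With FPKM in place of CPM, 54 were lowered in both and 30 lowered in LS and raised in MS, and TMM scaling left 1 of the latter. Without 1 library at a time, the members numbered 148 to 214, those raised in both 184 to 336, those lowered in both 30 to 114 and those lowered in LS and raised in MS 2 to 4. In place of 704 bases, the length implied by single libraries was 718 in HS_T1, 720 in MS_CK1, 796 in MS_T1, 781 in MS_T2, 771 in LS_CK1, 753 in LS_CK2, 744 in LS_T1 and 750 in LS_T2. TMM-scaled sums, chosen after seeing the data, moved the median HS_CK2 to HS_CK1 log2 ratio from 1.48 to 1.54.

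With each HS library left out in turn, the HS log2 fold change of 16 named members changed sign, and ranged from -0.47 to 2.06 for c86284_g3, from -1.56 to 2.48 for c83637_g1, from -1.63 to 2.93 for c79846_g1, from -0.53 to 1.23 for c80839_g1, from -1.09 to 1.21 for c100422_g1, from -1.48 to 0.37 for c96516_g1, from -1.72 to 0.83 for c100796_g1, from -1.31 to 0.65 for c85482_g1, from -0.85 to 1.44 for c83270_g2, from -0.35 to 2.30 for c77857_g1, from -0.19 to 0.82 for c93949_g1, from -0.14 to 0.72 for c80263_g1, from -0.30 to 0.59 for c100164_g2, from -0.39 to 0.89 for c92515_g1, from -0.49 to 0.52 for c90537_g1 and from -1.77 to 0.29 for c95104_g1.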
